A study of Homo sapiens with 6 samples.

Results

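The genes described here encode 9 receptors that steer B cells and plasma cells through blood, lymphoid organs and bone marrow: CXCR3, CXCR4, CXCR5, CCR2, CCR7, CCR10, S1PR1, GPR183 and ACKR3. They were chosen by gene symbol, with earlier results of these data known. Each gene was read through the probe sets that name only that gene, with the brightest used where there was more than 1. All 9 were measured, through 10 probe sets, among 18417 genes. The cells were RPMI 8226, an established human line grown from malignant plasma cells of multiple myeloma. They received 0 Gy (3 samples) or 6 Gy (3 samples) of carbon ions, a particle radiation with dense energy deposition, and total RNA was taken 1 day later. Biotin-labelled material made from this RNA was read on 1-colour arrays, and the values are the authors' processed intensities, read as log2. A difference of 1 on this scale is therefore a change of 2-fold. The labels number the samples 1 to 3 at each dose and do not say that they were separate cultures, so the spread behind the p-values is that of these samples and may be technical. The data come from 1 cell line at 1 dose and 1 time.

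Most of these receptors are G protein-coupled receptors that turn a gradient of a chemokine, a small secreted protein, or of a lipid into directed movement. CXCR5, CCR7 and GPR183 place B cells within lymphoid tissue, S1PR1 draws cells out of tissue towards the sphingosine 1-phosphate of blood and lymph, and CXCR4, with its ligand CXCL12, holds plasma cells in the bone marrow. CXCR3 and CCR2 serve entry into inflamed tissue, CCR10 is carried by plasma cells that settle at mucosal surfaces, and ACKR3 is an atypical receptor that removes CXCL12. Mature plasma cells are known to have lost much of the CXCR5 and CCR7 of their B cell precursors.

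Promoter sequences show the genomic context of some of the members whose mRNA differed between the doses. CCR7 and CCR10, which also differed, and ACKR3 had no promoter in the source used. RefSeq promoters of GRCh38.p14, from 250 bases before to 50 after a transcription start, were matched to 6 of the 9 genes. Those of CXCR5 (chr11:118893142-118893441, plus strand), which had the largest difference, of CXCR3 (chrX:71618462-71618761, minus strand), a pair of whose ligands also differed, and of S1PR1 (chr1:101236769-101237068, plus strand), the member that was lower, are printed 5′ to 3′ along the gene. Capitals mark matches, on either strand, to the TATA box (letters TATAAA), the GC box (letters GGGCGG), the CACCC box (letters CCACCC), a STAT site (letters TTCNNNGAA) or the NF-kappaB consensus.
CXCR5: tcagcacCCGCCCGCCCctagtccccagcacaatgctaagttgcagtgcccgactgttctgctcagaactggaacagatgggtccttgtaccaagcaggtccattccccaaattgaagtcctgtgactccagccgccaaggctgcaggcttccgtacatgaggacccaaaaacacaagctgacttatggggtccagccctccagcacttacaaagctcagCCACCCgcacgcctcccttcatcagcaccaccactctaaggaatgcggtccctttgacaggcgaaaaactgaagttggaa
CXCR3: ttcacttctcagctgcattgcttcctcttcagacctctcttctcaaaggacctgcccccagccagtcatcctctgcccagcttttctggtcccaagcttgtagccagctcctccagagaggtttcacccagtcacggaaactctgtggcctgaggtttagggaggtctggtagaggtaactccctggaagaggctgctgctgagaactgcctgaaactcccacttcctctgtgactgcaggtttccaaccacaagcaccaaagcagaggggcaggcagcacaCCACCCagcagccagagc
S1PR1: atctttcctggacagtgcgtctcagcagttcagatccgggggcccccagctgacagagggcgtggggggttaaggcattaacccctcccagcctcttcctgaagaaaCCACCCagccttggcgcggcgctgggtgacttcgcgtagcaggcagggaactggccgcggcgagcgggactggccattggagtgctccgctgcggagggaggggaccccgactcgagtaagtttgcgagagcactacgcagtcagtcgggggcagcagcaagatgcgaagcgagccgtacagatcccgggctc
The CXCR5 window held a pair of overlapping GC boxes, which begin at positions -243 and -239 from the start, and a CACCC box at position -30. CXCR3 had a CACCC box at position 33 after the start and S1PR1 had one at position -143. None of these 3 windows held the letters of the TATA box, the STAT site or the NF-kappaB consensus, and that of CCR2 held none of the 5 motifs. Over all 35116 promoters of this length in the table, 45% held the GC box, 34.3% the CACCC box, 11.5% the TATA box, 7.66% the STAT site and 5.91% the NF-kappaB consensus. A match is a run of letters and not a measured site.

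The array medians ran from 5.64 to 5.67 at 0 Gy and from 5.66 to 5.72 at 6 Gy. Irradiated and unirradiated arrays were compared with limma over all genes, and "rose" and "fell" are used of genes whose adjusted p (Benjamini-Hochberg) was under 0.05. Log2 differences had a median standard error (SE) of 0.08, and the number of arrays limits the precision. The table holds no detection calls, so a dim gene may or may not lie above background. By mean level, 1 of 12 plasma cell markers lay below the median gene, against 7 of 9 B cell, 9 of 10 T and NK cell, 8 of 9 myeloid and 7 of 10 stromal, endothelial and epithelial markers. Exceptions included EPCAM, KRT18 and MS4A1, at percentiles 93.8, 90.2 and 81.7 of mean level, and the plasma cell marker SLAMF7, at 28.2. The mean over the plasma cell markers ran from 10.07 to 10.10 on the unirradiated and from 9.96 to 10.02 on the irradiated arrays.

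After 6 Gy of carbon ions, 5 of the 9 receptor genes rose, 1 fell and 3 did not pass the test. CXCR5 rose most, by 2.55-fold, followed by CCR7 (1.73-fold), CCR2 (1.45-fold), CCR10 (1.43-fold) and CXCR3 (1.40-fold). S1PR1 fell to 0.82 of its unirradiated level. The arrays read RNA from whole cultures, so a change in the number of cells that carry a transcript and a change in RNA per cell cannot be told apart. CXCR4, GPR183 and ACKR3 did not pass. Among all 18417 genes, 14.5% were called in either direction, 6.35% as higher and 8.18% as lower. These shares moved with brightness: 1.85% rose and 0.63% fell among the dimmest 25% of genes, and 8.99% and 12.6% among the brightest 25%. The values of the dose groups did not overlap for 6 of the 9 members, beside 34.7% of all genes. These were the 6 called members, and the call and the separation rest on the same arrays. The median log2 difference over the 9 members was 0.48, beside 0.04 over all genes. The members were chosen with earlier results of these data known, so these contrasts with all genes are a description and no test.

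**Figure D1:**
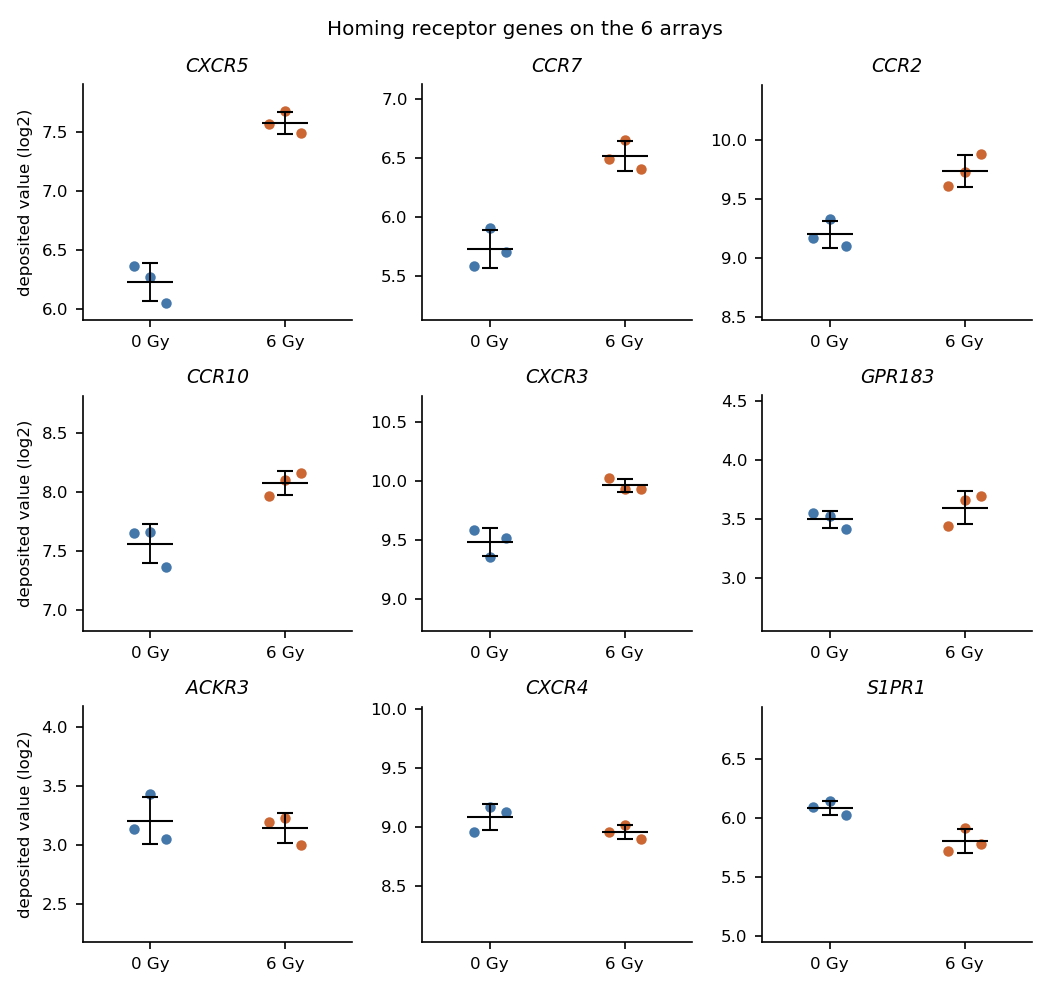
Deposited log2 value of each homing receptor gene on the 3 unirradiated (0 Gy, blue) and 3 irradiated (6 Gy, orange) arrays; points are arrays, bars the mean and SD, and every panel spans 2 log2 units on its own axis. For CXCR5, CCR7, CCR2, CCR10 and CXCR3 all irradiated points lie above all unirradiated points, and for S1PR1 all lie below.

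CXCR5 binds CXCL13 and takes B cells into follicles. Its log2 values were 6.36, 6.27 and 6.05 on the unirradiated arrays and 7.57, 7.68 and 7.49 on the irradiated arrays. The lowest irradiated value thus stood more than 1 log2 unit above the highest unirradiated one. The difference was 1.35 ± 0.09 (SE), with a 95% interval from 1.15 to 1.56 and a limma adjusted p of 2.67e-05. By size it was number 8 among the 1169 genes that rose. Its mean level over all 6 arrays lay between the median and the upper quartile of gene means. In that range the 5th percentile of differences was -0.49 and the 95th 0.34. On the unirradiated arrays alone the CXCR5 mean was 6.23, below the medians of genes there (6.39 to 6.44). Between the lower quartile and the median of gene means these percentiles were -0.30 and 0.32.

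CCR7 answers to CCL19 and CCL21 and brings B cells and T cells to the T cell zones of lymph nodes. It gave 5.58, 5.90 and 5.70 without irradiation and 6.49, 6.65 and 6.41 with it. The groups were separate, and the CCR7 gap between them was wider than the range within either. The difference was 0.79 ± 0.10 (SE), with an adjusted p in limma of 8.35e-04, number 44 by size among the genes that rose. Its level lay below that of the median gene on the unirradiated arrays. Over the genes between the lower quartile and the median of brightness, where CCR7 and S1PR1 lie, the median difference was 0.08.

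CXCR3 is the receptor of the interferon-induced chemokines CXCL9, CXCL10 and CXCL11. Its values were 9.59, 9.36 and 9.52 at 0 Gy and 10.03, 9.94 and 9.93 at 6 Gy. Every irradiated array was higher, and CXCR3 differed by 0.48 ± 0.08 (SE; limma adjusted p 0.00372). CCR10 binds CCL27 and CCL28 and gave 7.66, 7.66 and 7.37 at 0 Gy and 7.97, 8.10 and 8.16 at 6 Gy. Unirradiated replicate 3 was its lowest array, and the doses were again separate, with a difference of 0.51 ± 0.10 (SE; limma adjusted p 0.00676). CCR2, which binds CCL2 and draws monocytes to inflamed tissue, gave 9.17, 9.33 and 9.10 at 0 Gy and 9.61, 9.73 and 9.88 at 6 Gy. It rose by 0.54 ± 0.09 (SE; limma adjusted p 0.00419). A second, dimmer CCR2 probe set gave 8.92, 9.13 and 8.97 and then 9.34, 9.39 and 9.44, a difference of 0.39 ± 0.08 (SE), with a limma adjusted p of 0.0329 over all probe sets. Probe sets of chemokine receptor genes may share signal among related family members.

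S1PR1, the receptor for egress along sphingosine 1-phosphate, moved the other way. Its values were 6.09, 6.14 and 6.02 on unirradiated arrays and 5.72, 5.92 and 5.77 on irradiated arrays. The 3 irradiated values were all lower and the log2 difference was -0.28 ± 0.08 (SE), with an interval from -0.45 to -0.11 and a limma adjusted p of 0.0349. This call did not hold with 1 array left out, except without irradiated replicate 2: the adjusted p was 0.0979, 0.122 and 0.0555 without unirradiated replicates 1, 2 and 3 and 0.106 and 0.0773 without irradiated replicates 1 and 3. The 5 receptors that rose passed in all 14 alternative fits of each.

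CXCR4, the bone marrow retention receptor of plasma cells, gave 8.96, 9.17 and 9.13 at 0 Gy and 8.96, 9.02 and 8.90 at 6 Gy. The groups overlapped. The difference was -0.12, with a 95% interval from -0.29 to 0.05 (limma adjusted p 0.328), which spans 0.82 to 1.04 of the unirradiated level. GPR183, the receptor for oxysterols that positions activated B cells, gave 3.55, 3.52 and 3.41 at 0 Gy and 3.44, 3.66 and 3.69 at 6 Gy (difference 0.10, interval -0.09 to 0.29, limma adjusted p 0.458). ACKR3 gave 3.13, 3.43 and 3.05 and then 3.20, 3.23 and 3.00 (difference -0.06, interval -0.30 to 0.18, limma adjusted p 0.741). GPR183 and ACKR3 were among the dimmest 25% of genes by mean level, and their intervals leave room for a change in either direction. The ACKR3 difference turned to 0.05 without unirradiated replicate 2 and to 0.01 without irradiated replicate 3.

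**Figure D2:**
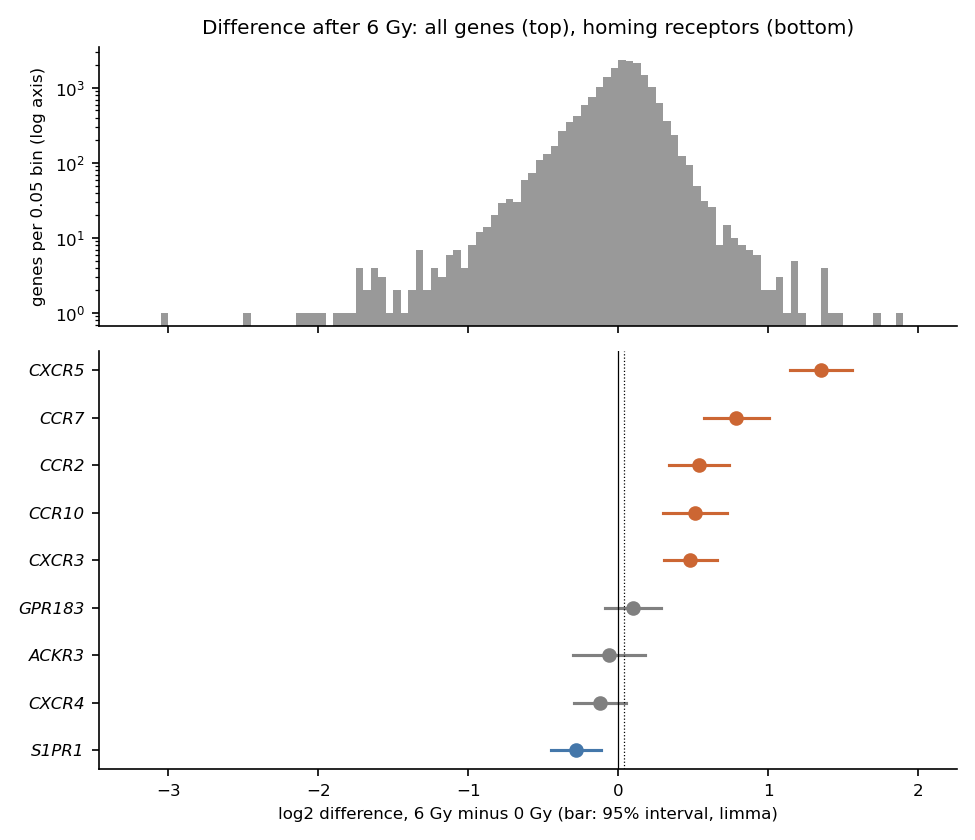
Top, number of genes (log axis) in bins of the log2 difference, 6 Gy minus 0 Gy, over all 18417 genes; bottom, the same difference for the 9 receptors with its 95% interval from limma (orange rose, blue fell, grey did not pass; solid line 0, dotted line the median of all genes). CXCR5 at 1.35 lies far out in the upper tail, and S1PR1 at -0.28 lies within the lower shoulder.

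The receptors were then set beside the genes of their ligands and of enzymes that make or remove lipid ligands. Of 21 such genes measured, 3 rose and 0 fell, beside 14.5% of all genes called in either direction, with a median log2 difference of 0.08. A pair of CXCR3 ligands, chemoattractants of activated T cells, led them. CXCL9 gave 4.56, 4.53 and 4.61 at 0 Gy and 6.42, 6.61 and 5.92 at 6 Gy, and CXCL10 gave 7.38, 7.68 and 7.35 and then 9.08, 8.83 and 8.72. All irradiated arrays were higher for both, by 1.75 ± 0.15 and 1.41 ± 0.11 (SE; limma adjusted p 9.22e-05 and 7.67e-05), so CXCR3 and these ligands rose in the same samples. CXCL11 and PF4, which also bind CXCR3, differed by 0.06 and 0.08 and did not pass (limma adjusted p 0.676 and 0.644). The third riser was PLPP3, an enzyme that removes phosphate from sphingosine 1-phosphate, at 0.27 ± 0.07 (SE; limma adjusted p 0.0272). The PLPP3 call ended without any 1 array other than unirradiated replicate 2, with an adjusted p of up to 0.105 without unirradiated replicate 1.

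For the other receptors the measured ligand genes did not pass. CCL13, CCL27, MIF, SPHK2 and HSD3B7 were also listed but were not measured. CXCL13, the ligand of CXCR5, did not pass (difference -0.002 ± 0.085, SE; limma adjusted p 0.988) and was dim on all arrays, from 2.81 to 3.10. CCL19 and CCL21, the CCR7 ligands, differed by 0.25 and 0.04 (limma adjusted p 0.106 and 0.829). CCL2, CCL7 and CCL8, ligands of CCR2, differed by 0.19, -0.13 and 0.11 (limma adjusted p 0.154, 0.623 and 0.557). CCL2 was bright, at 12.63 to 12.66 without irradiation and 12.70 to 12.97 with it, and its groups did not overlap. CCL28, the mucosal ligand of CCR10, differed by 0.05 (limma adjusted p 0.643). CXCL12, shared by CXCR4 and ACKR3, gave 10.06, 9.96 and 10.03 at 0 Gy and 10.15, 10.11 and 10.24 at 6 Gy, a difference of 0.15 that did not pass although its groups did not overlap (limma adjusted p 0.182). On the S1PR1 side, the kinase SPHK1 differed by 0.08, the exporter SPNS2 by 0.11 and the lyase SGPL1 by -0.09, and none of these 3 passed (limma adjusted p 0.465, 0.326 and 0.440). CH25H and CYP7B1, which make the oxysterol ligand of GPR183, differed by -0.08 and -0.04 (limma adjusted p 0.573 and 0.834).

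**Figure D3:**
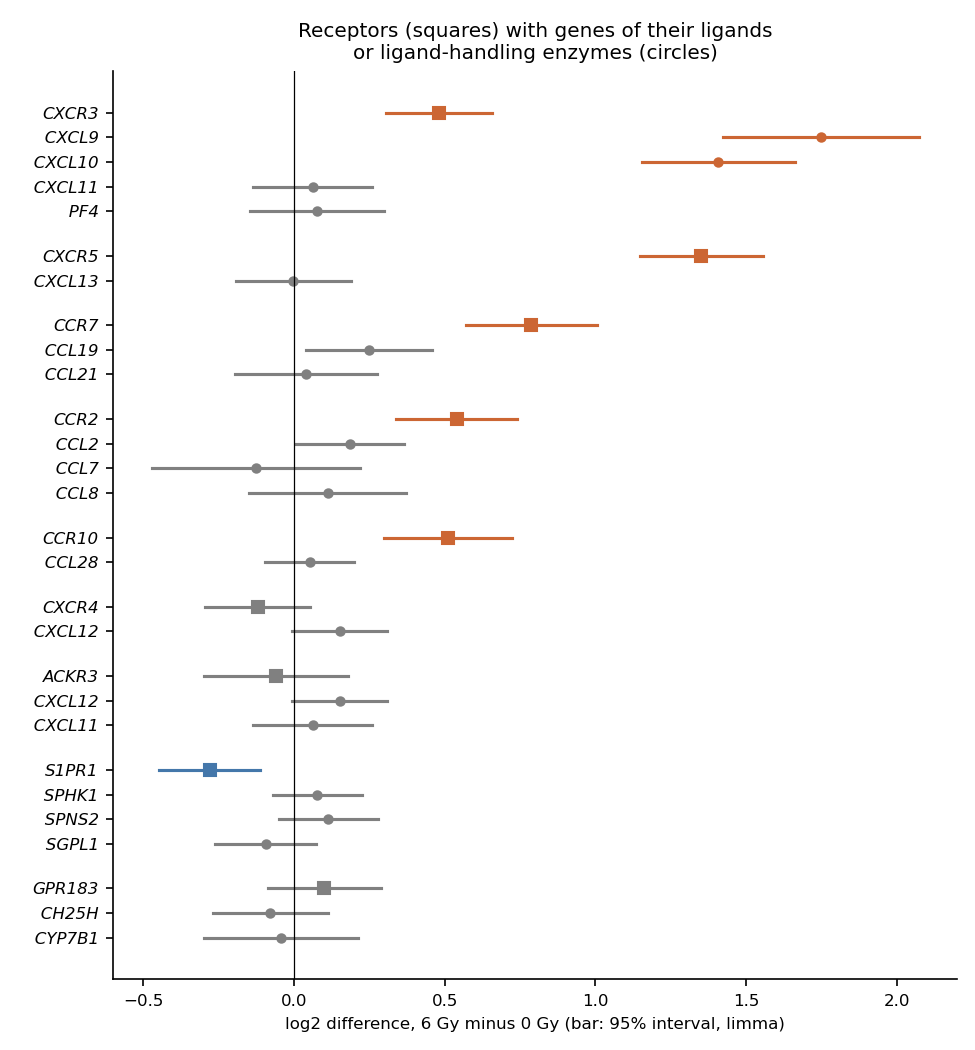
Log2 difference, 6 Gy minus 0 Gy, with its 95% interval from limma, for each receptor (square). Circles are a selection of the measured genes of its ligands or ligand-handling enzymes. Orange rose, blue fell and grey did not pass. PLPP3, which rose, and SGPP1, SGPP2 and CYP27A1, which did not pass, are not drawn. Among the ligands drawn, CXCL9 at 1.75 and CXCL10 at 1.41 stand apart from the others, which lie between -0.13 and 0.25.

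Related receptors that are not members were listed beside them. Of 24 other chemokine, sphingosine 1-phosphate and lipid receptors measured, 2 rose and 0 fell, beside 14.5% of all genes called in either direction. Their median difference was 0.07, and 11 of the 24 were among the dimmest 25% of genes, of which 1.85% rose and 0.63% fell. PTGER4, a prostaglandin E2 receptor, gave 6.61, 6.56 and 6.66 at 0 Gy and 7.26, 7.16 and 7.33 at 6 Gy, with no overlap, and rose by 0.64 ± 0.07 (SE; limma adjusted p 4.94e-04). ACKR2, which scavenges inflammatory chemokines, was dim and differed by 0.38 ± 0.11 (SE; limma adjusted p 0.0425). The ACKR2 call ended with any 1 array left out other than irradiated replicate 1, with an adjusted p of up to 0.134 without unirradiated replicate 3.

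Proteins that modify, couple and switch off these receptors were listed next. Of 27 genes measured, 3 rose and 1 fell, beside 14.5% of all genes called in either direction, with a median difference of 0.002. Both tyrosylprotein sulfotransferases, which add sulfate to the extracellular tails of chemokine receptors and so aid ligand binding, rose. TPST2 gave 9.78, 9.84 and 9.81 at 0 Gy and 10.31, 10.29 and 10.29 at 6 Gy, and TPST1 gave 9.18, 9.07 and 9.08 and then 9.41, 9.50 and 9.52. Their groups were separate, with differences of 0.49 ± 0.06 and 0.37 ± 0.07 (SE; limma adjusted p 0.00106 and 0.00735). ARRB1, encoding a beta-arrestin that binds phosphorylated receptors, rose by 0.52 ± 0.09, whereas GRK2, a kinase that phosphorylates active receptors, fell by 0.44 ± 0.07 on the log2 scale (SE; limma adjusted p 0.00607 and 0.00273). GRK2 gave 9.10, 9.10 and 9.05 at 0 Gy and 8.67, 8.57 and 8.69 at 6 Gy, so the doses were well separated. These 4 calls held with each array left out in turn. Without unirradiated replicate 3 the list counted 2 lower genes. CD69, which pulls S1PR1 from the surface, was named after its value was seen and differed by -0.25 (limma adjusted p 0.134). It was dim, at percentile 13.5 of mean level, and its groups overlapped.

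Downstream migration genes, from phosphoinositide 3-kinase to the activators of Rac, had 1 higher and 3 lower of 27 measured and a median difference of 0.003. Over all genes, 14.5% were called in either direction. ELMO1, a partner of the Rac activator DOCK2, rose by 0.32 ± 0.07, and the 3 that fell were the Rac activator PREX1 (-0.34 ± 0.08), the phospholipase PLCB3 (-0.29 ± 0.07) and the exchange factor ARHGEF1 (-0.33 ± 0.09; all SE). Limma adjusted p-values were 0.0124, 0.0171, 0.0209 and 0.0363 in that order. With 1 array left out, the call ended for ELMO1 without unirradiated replicate 1 (0.0567), for PREX1 without irradiated replicate 1 or unirradiated replicate 1 or 2 (up to 0.0724), for PLCB3 without irradiated replicate 1 or 2 or unirradiated replicate 2 or 3 (up to 0.0701), and for ARHGEF1 without irradiated replicate 1 or 3 or unirradiated replicate 1 or 2 (up to 0.127). Without irradiated replicate 3 the list counted 2 higher genes.

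Transcription factors linked to these receptor genes counted 1 higher and 4 lower of 25, with a median difference of 0.04. Over all genes, 14.5% were called in either direction. BACH2, a repressor that holds B cells back from the plasma cell state, gave 6.96, 7.15 and 6.84 at 0 Gy and 6.31, 6.49 and 6.42 at 6 Gy. The BACH2 groups were separate, and it fell by 0.58 ± 0.09 on the log2 scale (SE; limma adjusted p 0.00292). The plasma cell factor XBP1 (-0.23), the respiratory gene regulator NRF1 (-0.33) and NFKB1 (-0.33) fell, and NFKB2, which encodes the precursor of the noncanonical NF-kappaB pathway, rose by 0.38 (limma adjusted p 0.0405, 0.0332, 0.0352 and 0.0199). Of these, XBP1 and NFKB1 lost the call with any 1 array left out other than irradiated replicate 3 (up to 0.117 and 0.126). NRF1 lost it without irradiated replicate 1 or 3 or unirradiated replicate 1 or 2 (up to 0.12), and NFKB2 without unirradiated replicate 1 and irradiated replicate 2 (0.07 and 0.0582). KLF2, known to activate S1PR1, was named after its value was seen. It gave 8.94, 8.74 and 8.78 at 0 Gy and 8.54, 8.66 and 8.59 at 6 Gy, a difference of -0.23 that did not pass (limma adjusted p 0.0810). The related KLF3 and KLF4 differed by -0.12 and -0.008 and did not pass (limma adjusted p 0.338 and 0.964). A link of these factors to the S1PR1 difference was not tested.

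Most markers of other cell types did not pass the test, which 14.5% of all genes passed in either direction. The mean over 10 T and NK cell markers ran from 5.15 to 5.29 at 0 Gy and from 5.35 to 5.49 at 6 Gy, and 2 of the 10 rose (CD5 and TRAT1). That over 9 myeloid markers ran from 4.61 to 4.78 and from 4.85 to 4.92, with 1 of 9 higher (ITGAM), and that over 10 stromal, endothelial and epithelial markers from 5.82 to 5.91 and from 6.02 to 6.06, with 3 of 10 higher (PECAM1, COL1A1 and COL3A1) and 1 lower (EPCAM). The lowest mean of any gene was 2.4 and there were no detection calls, so these levels cannot say whether the marker transcripts were present. Of 9 B cell markers, 2 rose and 1 fell: MS4A1, encoding CD20, by 0.54 ± 0.08, CD79B by 0.28 ± 0.08 and the complement receptor CR2 by -0.33 ± 0.10 (SE; limma adjusted p 0.00176, 0.0359 and 0.0463). Among plasma cell markers CD38 (-0.42), DERL3 (-0.58) and XBP1 fell and SLAMF7 (0.55) rose. With 1 array left out the call ended for COL1A1 (any array), CD79B (any but unirradiated replicate 1), CR2 (any but unirradiated replicate 3), COL3A1 (any but irradiated replicate 1), TRAT1 (any but replicate 2 of either dose), CD5 (replicate 2 of either dose), EPCAM (unirradiated replicate 2 or 3) and CD38 (unirradiated replicate 2), with limma adjusted p-values of up to 0.113, 0.113, 0.133, 0.0845, 0.124, 0.0861, 0.0541 and 0.0550. Brightness also moved with the differences: the median difference was 0.06 below the lower quartile of gene means, 0.08 from there to the median, -0.016 from the median to the upper quartile and -0.005 above it. The part of these shifts in the receptors' differences was not tested.

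For the pair of members with the largest differences, the genes with the most similar pattern over the 6 arrays were looked up among the 9208 genes brighter than the median gene. For CXCR5 they were TMEM54 (Pearson r 0.9985), NCDN (0.9981) and PCP4 (0.9974), and for CCR7 they were SEMA7A (0.9987), NUDT22 (0.9978) and FAM171B (0.9975). TMEM54 gave 7.38, 7.32 and 7.23 at 0 Gy and 8.18, 8.19 and 8.09 at 6 Gy. SEMA7A, a semaphorin, gave 7.90, 8.07 and 7.98 and then 8.40, 8.45 and 8.35. The 6 arrays of each correlation share the step between the doses, which sets most of its size, so these values describe the arrays only.

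**Figure D4:**
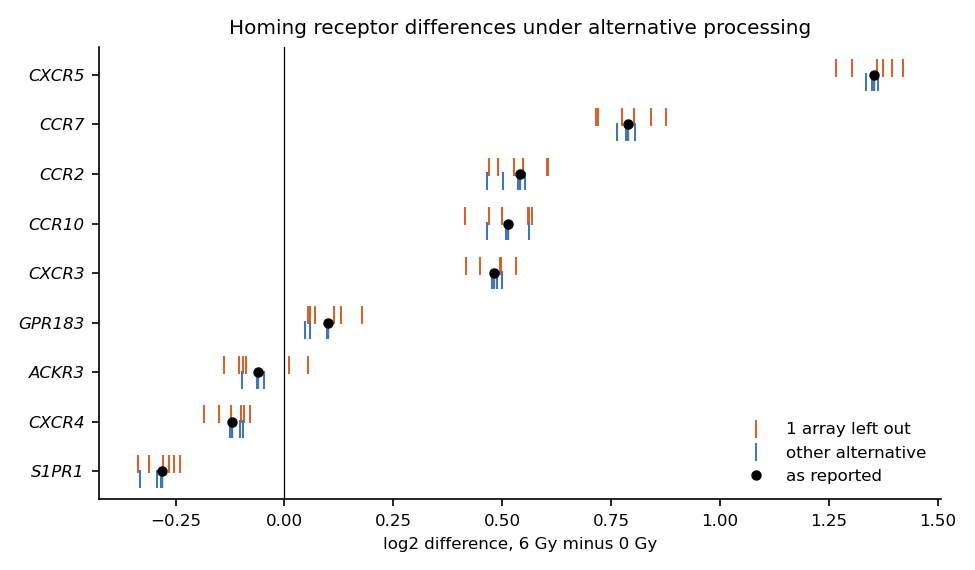
Log2 difference, 6 Gy minus 0 Gy, of each receptor as reported (black), with 1 array left out (orange) and under the other alternative fits (blue). The marks of the 5 receptors that rose run from 0.415 for CCR10 to 1.419 for CXCR5, those of S1PR1 and CXCR4 all lie below 0, and those of ACKR3 lie on both sides of 0.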

How the data were processed

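The deposited table gives 33297 probe set values for each of 6 arrays, which the authors had processed; the deposited values were taken as log2 intensities because of their range, and every fold rests on that reading. Normalization, software and background step: not given in the sources used here. Names come from the platform annotation of the array; 19460 list 1 symbol, 1754 several and 12083 none. For each gene, of its 1-symbol probe sets the brightest by its mean over the 6 arrays was kept (18417 genes). Irradiated and unirradiated arrays were compared with limma 3.58.1 (lmFit, eBayes; R 4.3.3), two-sided, without covariates or filter, with Benjamini-Hochberg adjustment over all genes; the residual and prior degrees of freedom were 4 and 5.85. The steps were tested on simulated data. Standard deviations are over 3 arrays, and 95% intervals use the moderated SE. Python 3.11.15 with matplotlib 3.10.9 drew the figures, and pandas 2.3.3 and numpy 2.4.6 made the tables.

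The members and gene lists were chosen with earlier results of these data known. Named are all members, the list genes with an adjusted p under 0.05 (at most 6 per list) and the marker genes that passed. Also named are the genes most like the 2 members with the largest differences, and the ligand genes paired with a member whatever their value. Outside this rule, KLF2 and CD69 were named after their values were seen, and KLF3 and KLF4 were named beside KLF2. Alternatives were array weights, a replicate block by sample number, the removal of each array in turn or of the dimmest 33.3% of genes, quantile normalization, array medians subtracted, a robust prior with intensity trend, the mean of a gene's probe sets, all probe sets, an adjusted p under 0.01 and a 1.5-fold minimum.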

Additional observations from a re-analysis of the deposited data

How the results depend on the processing

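The counts of 5 higher and 1 lower receptor genes were the same under quantile normalization, subtracted array medians, array weights, a robust prior with intensity trend, the dimmest 33.3% of genes left out (which drops GPR183 and ACKR3) and the mean of probe sets. The 5 that rose also passed with each array left out and at an adjusted p under 0.01; with a 1.5-fold minimum, 2 receptor genes were called, both higher and 0 lower. By limma 0 were lower at an adjusted p under 0.01, over all probe sets (S1PR1 adjusted p 0.0837) and with a replicate block by sample number (0.0538), and 0 to 1 with an array left out, while 1 was lower at an unadjusted p under 0.05 in each of these fits, or 2 without unirradiated replicate 1. The log2 difference of ACKR3 ran from -0.138 to 0.053 with an array left out. Counts of all changed genes were 2676 as reported, 1471 to 2184 with an array left out (1584 and 1471 without unirradiated replicates 1 and 2), 1919 with the replicate block, 1381 over all probe sets, 1077 at 0.01 and 388 with a 1.5-fold minimum. Deviations of same-numbered arrays from their group means correlated at -0.042, 0.103 and -0.111, so the numbers were not taken to pair the arrays. Of the other lists, the genes that couple and switch off receptors, 3 higher as reported, counted 5 higher with quantile normalization or the dimmest genes left out and 6 with the robust prior and trend; the downstream migration genes, 3 lower as reported, counted 0 lower over all probe sets; the transcription factors, 1 higher and 4 lower as reported, counted 0 higher and 1 lower over all probe sets and 2 lower with the replicate block; and the other receptors, 2 higher as reported, counted 1 with array weights, the block or all probe sets. The table holds no detection calls, so what signal over background limits was not tested.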
